A study of Mus musculus with 6 samples.

Results

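Integrins, cadherins, protocadherins, claudins and junctional adhesion molecules are the surface proteins by which cells hold to matrix and to each other. Their transcripts were followed here in bone marrow-derived mesenchymal stem cells (MSCs, adherent stromal cells that can form bone, fat and cartilage) from wild-type C57BL/6J mice. The rule for members used gene symbol and protein-coding biotype and no measured value, but it was set with earlier results of these data known. The members come only from genes with a count of 10 or more in at least 3 libraries. They number 94 of the 13727 protein-coding genes and 15634 genes analysed: 16 alpha integrins, 7 beta integrins, 11 cadherins of the Cdh series, 47 clustered protocadherins, 8 other protocadherins, 2 claudins, and the 3 junctional adhesion molecules F11r, Jam2 and Jam3. Pcdhgb8 carried the biotype of a polymorphic pseudogene and was left out by the rule, while Cdh1, Cdh5 and Cldn5 were not analysed here. Of the 6 libraries 3 came from cells left without treatment (Control) and 3 from cells given TNF-α, an inflammatory cytokine, at 10 ng/mL for 24 h (TNF). Genotype, strain and medium (α-MEM with fetal bovine serum) were shared by both groups, and nothing in the labels says whether replicates were separate cultures or animals, so p-values measure only the spread between these samples.

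Integrins are receptors made of an alpha and a beta chain. The alpha chain largely sets the ligand (collagen, laminin, or proteins with an RGD sequence such as fibronectin and vitronectin), and the beta chain couples the receptor through talin and kindlin to actin. Cadherins bind the same cadherin on the next cell in the presence of calcium and hold catenins on their inner side. Clustered protocadherins are spliced from arrays of neighbouring genes and are best known for cell recognition among neurons. Claudins and junctional adhesion molecules belong to tight junctions, which seal epithelia and endothelia.

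Libraries held 45629973 to 77142418 counts, of which 194768 to 500830 fell on the 94 members (0.427% to 0.649%). TNF library 2 stood apart, with 19.4% of its counts on 18S ribosomal RNA against 1.10% to 3.55% in the other libraries, and Control library 2 was the deepest. The cultures were not stromal cells alone by their markers. All 12 stromal markers had reads, with Pdgfrb at 102 to 121 TPM (transcripts per 1000000, a level per transcript length), and so did all 18 markers of macrophages and monocytes, whose summed level was 3660 to 5125 TPM in Control and 2608 to 3171 TPM in TNF. The stromal markers summed to 3760 to 4625 TPM in Control and 2877 to 3320 TPM in TNF. The lowest TNF value of both sums was that of TNF library 2, and the sums were not rescaled for its 18S reads. With 18S left out of the TPM scale, the sum of the 94 members in that library moved from 1789 to 2231 TPM. Control library 2 had the highest sum of both lists. Of the 18 macrophage and monocyte markers 4 rose and 8 fell (66.7%, where 32.4% of all genes tested rose or fell). When libraries were scaled by their totals, 2 of them rose and 10 fell. Of the 12 stromal markers 4 rose and 2 fell (50%), also with that scaling. Of 11 endothelial markers 6, Pecam1 and Cdh5 among them, and of 10 epithelial markers 9, Epcam and Cdh1 among them, were not analysed here. The 5 remaining endothelial markers summed to 4.03 to 7.39 TPM over all libraries. The 1 remaining epithelial marker, Krt19, was at 28.2 to 49.6 TPM in Control and fell to 9.17 to 13.1 TPM in TNF (log2 fold change -1.61). In bulk RNA fewer cells of a type and less RNA per cell cannot be told apart.

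Of the 4 collagen-binding alpha chains, a class named after values were seen, 3 fell and 1 rose. The 250 bases before the start of all 4 of their genes are therefore shown, with those of Cdh22, the cadherin with the largest rise. Each is written 5′ to 3′ on the strand of the gene and comes from RefSeq on build GRCm38.p6, where 33 of the 94 members had a promoter window. Capitals mark a match to the κB motif, the site that NF-kB binds.
Itga1 (chr13:115101965-115102214, minus strand): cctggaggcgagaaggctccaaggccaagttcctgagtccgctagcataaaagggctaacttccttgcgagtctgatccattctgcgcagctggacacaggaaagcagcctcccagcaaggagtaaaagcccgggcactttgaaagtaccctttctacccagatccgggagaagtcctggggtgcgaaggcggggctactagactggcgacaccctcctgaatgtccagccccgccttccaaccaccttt
Itga2 (chr13:114932101-114932350, minus strand): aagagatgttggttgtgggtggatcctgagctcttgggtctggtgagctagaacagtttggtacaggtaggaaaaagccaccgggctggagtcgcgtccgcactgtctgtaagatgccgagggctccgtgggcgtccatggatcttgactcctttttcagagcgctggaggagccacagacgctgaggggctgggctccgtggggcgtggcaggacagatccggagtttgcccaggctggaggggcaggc
Itga10 (chr3:96645334-96645583, plus strand): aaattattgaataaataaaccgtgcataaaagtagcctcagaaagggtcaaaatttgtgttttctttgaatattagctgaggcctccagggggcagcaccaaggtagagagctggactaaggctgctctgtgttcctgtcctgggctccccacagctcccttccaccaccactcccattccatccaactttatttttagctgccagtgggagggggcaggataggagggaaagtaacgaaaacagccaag
Itga11 (chr9:62677605-62677854, plus strand): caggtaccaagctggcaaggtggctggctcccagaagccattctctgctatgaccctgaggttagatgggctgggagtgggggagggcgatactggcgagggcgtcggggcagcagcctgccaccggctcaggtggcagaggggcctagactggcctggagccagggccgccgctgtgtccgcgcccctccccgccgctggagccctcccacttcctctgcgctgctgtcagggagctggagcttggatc
Cdh22 (chr2:165234738-165234987, minus strand): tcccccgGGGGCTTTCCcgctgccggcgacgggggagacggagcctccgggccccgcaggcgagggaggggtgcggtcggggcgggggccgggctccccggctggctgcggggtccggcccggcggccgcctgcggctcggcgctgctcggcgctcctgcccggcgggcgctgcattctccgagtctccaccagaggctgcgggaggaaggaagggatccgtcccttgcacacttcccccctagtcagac
The κB motif, searched on both strands, was found in the Cdh22 sequence, its first base at -243 from the start. Over windows that reach 50 bases past the start, it was in 4.51% of all 32851 and in 1 of the 37 that belong to members. The AP-1 motif TGANTCA, which reads the same on both strands, was in 0 of the 5 sequences shown, in 4 of the 37 member windows and in 7.81% of all windows. A match or its absence describes only the letters of that stretch. Itga1 and Itga2 are neighbouring protein-coding genes on chromosome 13 in the same RefSeq assembly.

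TNF was compared with Control gene by gene to ask which of these transcripts differed after stimulation. Values below are CPM (counts per 1000000 after TMM scaling of library size) within a gene and TPM between genes, with SDs over n = 3 libraries. A gene was called at an adjusted p under 0.05 from the quasi-likelihood test of edgeR, adjusted by Benjamini-Hochberg over all 15547 genes tested. All 94 members passed the filter on low counts. Of them 9 were called higher and 20 lower in TNF, 30.9% in all, where 32.4% of all genes tested were called (16.0% higher, 16.4% lower). The share of members called was therefore near the background, and the families differed in how it was made up, from 5 of 47 clustered protocadherins to 10 of 16 alpha integrins. At 2-fold or more, 5 members were called higher and 9 lower, where 5.81% and 5.22% of all genes tested were. The groups did not overlap in 50 members (48.7% of all genes), 38 of them lower in TNF (24.7% of all genes). The median log2 fold change was -0.24 over the members and -0.00461 over all genes tested.

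**Figure D1:**
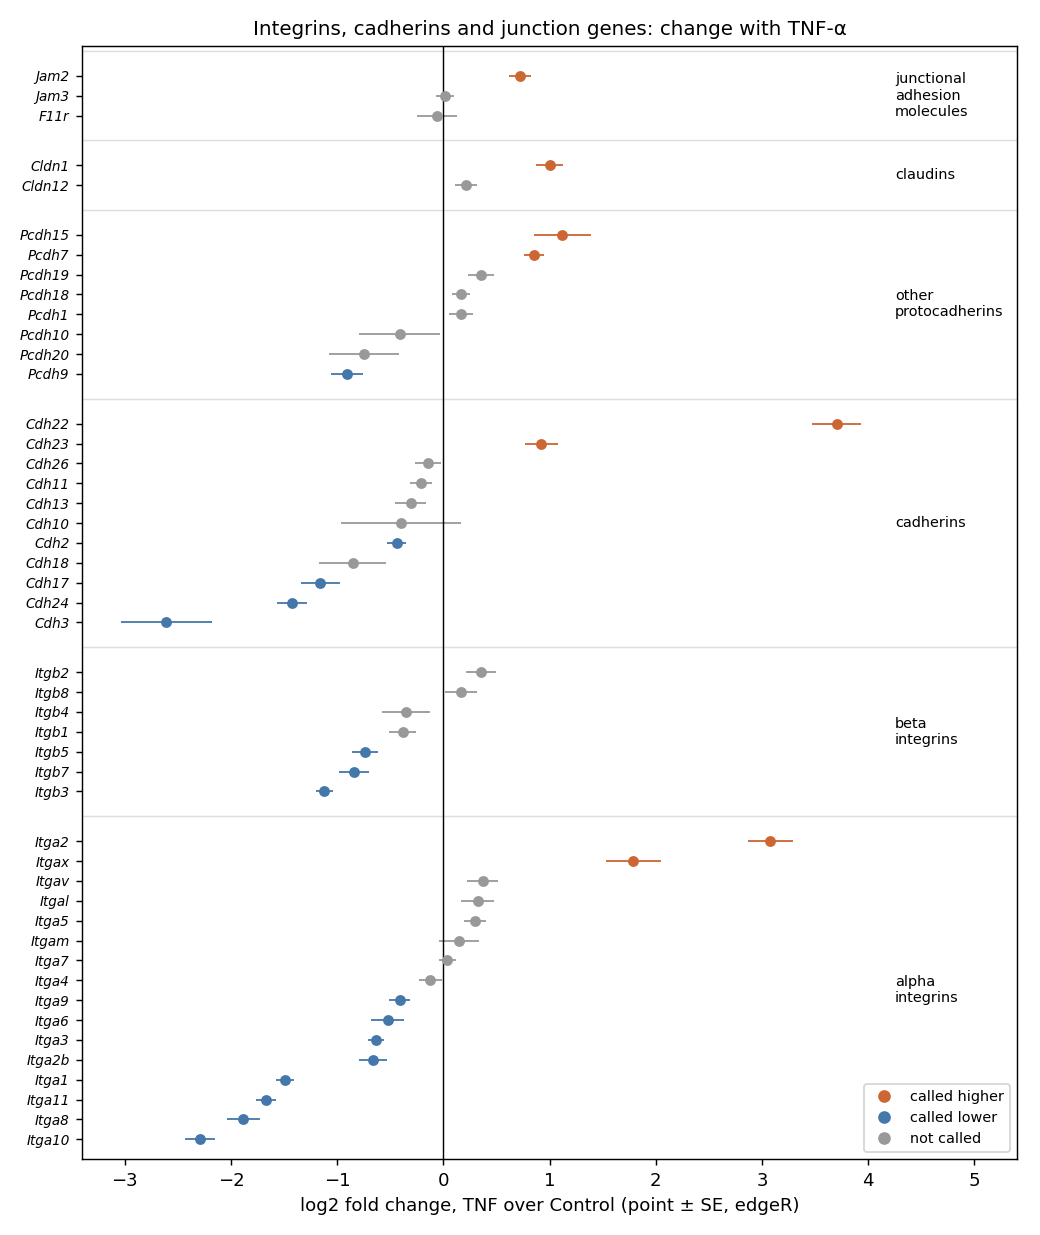
Log2 fold change of TNF over Control (horizontal axis, point ± SE) for the 47 members outside the protocadherin clusters, grouped by family. Orange points were called higher, blue points lower and grey points not called; the alpha integrins run from Itga10 at -2.29 to Itga2 at 3.08.

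Among alpha integrins 8 were called lower and 2 higher (62.5% called, against 32.4% of all genes tested). Their summed level was 426, 390 and 402 TPM in the 3 Control libraries and 345, 303 and 314 TPM in the 3 TNF libraries, so every TNF library lay below every Control library. Rescaled without 18S reads, an alternative chosen after seeing the data, the means were 416 ± 21.9 and 351 ± 30.6 TPM. The make-up of this sum changed more than its size. Itga11, the highest alpha chain in Control, held 31.5% ± 1.18 of the sum there and 11.9% ± 0.558 in TNF, while the share of Itga5, the fibronectin receptor chain, was 26.1% ± 3.40 and 38.8% ± 1.67. In order of mean level, Itga11 at 128 ± 2.80 TPM and Itga5 at 106 ± 16.8 TPM led in Control, and Itga5 at 125 ± 12.9 TPM, Itgav at 74.1 ± 0.686 TPM and Itga11 at 38.2 ± 3.01 TPM led in TNF.

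The collagen-binding chains Itga1, Itga10 and Itga11 fell, and Itga2, the fourth member of that class, rose. Itga11, which binds fibrillar collagen on fibroblast-like cells, had 351, 399 and 349 CPM in Control and 115, 116 and 114 CPM in TNF (log2 fold change -1.67 ± 0.09 SE, adjusted p = 3.31e-06 by edgeR). The groups were far apart and the TNF libraries nearly equal. Itga1, a receptor for collagen of basement membranes and fibrils, had 51.4, 52.6 and 49.0 CPM in Control and 18.5, 19.1 and 16.9 CPM in TNF (-1.49 ± 0.08, adjusted p = 3.25e-06 by edgeR). Itga10, known from cartilage, had 8.52, 10.1 and 8.08 CPM in Control and 1.57, 1.92 and 1.97 CPM in TNF (-2.29 ± 0.14, adjusted p = 6.5e-06 by edgeR). It was the largest fall among the alpha chains. Itga2, the collagen receptor chain of platelets and epithelia, had 0.454, 0.410 and 0.281 CPM in Control and 2.96, 3.45 and 3.35 CPM in TNF (3.08 ± 0.21, adjusted p = 1.19e-05 by edgeR).

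All 3 TNF libraries held more Itga2 than any Control library, but its level stayed low. The 4 chains summed to 144, 141 and 139 TPM in Control and 46.4, 39.2 and 44.8 TPM in TNF, of which Itga2 held 1.68, 0.717 and 0.797 TPM in the 3 TNF libraries. Its TPM was thus highest in TNF library 1, where its CPM was lowest of the 3. Counts and TPM of Itga2 did not run in parallel, since log2(count/TPM) had an SD of 0.50 across libraries where the median SD over all genes was 0.027. TPM divides by an effective length that depends on the isoforms assigned, and the isoforms were not analysed here.

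Of the chains that bind RGD sequences, Itga8 and Itga2b fell and Itga5 and Itgav were not called. Itga8, a receptor for nephronectin, had 16.3, 21.4 and 14.1 CPM in Control and 4.64, 4.52 and 4.90 CPM in TNF (-1.88 ± 0.16, adjusted p = 3.83e-05 by edgeR). Control library 2 was the highest and the groups did not overlap. Itga2b, the platelet chain, had 5.31, 5.56 and 5.83 against 3.76, 2.96 and 3.78 CPM (-0.66 ± 0.13, adjusted p = 0.00449 by edgeR). Pf4, another platelet gene, moved the other way in the same libraries, from 41.0 to 61.9 TPM in Control to 147 to 207 TPM in TNF. It was the only 1 to rise of the 4 platelet markers analysed. The other 3 had a log2 fold change below 0, with Itga2b called lower and 2 not called. Another 4 markers of that list were not analysed here. Itga5 had 256, 232 and 269 CPM in Control and 329, 318 and 284 CPM in TNF. Its groups did not overlap, yet it was not called (0.30 ± 0.10, adjusted p = 0.0532 by edgeR; 0.0463 without TNF library 3). Itgav, the vitronectin receptor chain, had 181, 212 and 143 CPM in Control and 213, 248 and 231 CPM in TNF (0.37 ± 0.14, adjusted p = 0.0834 by edgeR). Control library 2 came within 1 CPM of the lowest TNF library, and without it the adjusted p was 0.0139.

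Of the laminin-binding chains Itga3 and Itga6 fell and Itga7 was not called. Itga3 had 113, 107 and 113 CPM in Control and 72.4, 69.4 and 72.6 CPM in TNF (-0.63 ± 0.07, adjusted p = 0.000246 by edgeR), a narrow spread in both groups. Itga6 fell by 0.53 on the log2 scale, with Control library 2 at 29.2 CPM and the other Control libraries at 21.4 and 19.5 CPM. Leaving out TNF library 1 or TNF library 2 ended its call (adjusted p = 0.106 and 0.0814 by edgeR). Itga7 had 31.1 ± 1.96 and 31.9 ± 0.330 CPM. Itga9, which binds tenascin and VCAM-1, fell by 0.41 on the log2 scale in counts (adjusted p = 0.0107 by edgeR). In TPM it stood at 5.19, 4.98 and 5.03 in Control and 6.63, 3.28 and 3.62 in TNF, so TNF library 1 lay above Control on that scale and limma on log2(TPM + 1) did not call it (adjusted p = 0.554). Itga4, the other VCAM-1 receptor chain, had 11.5 ± 1.37 and 10.6 ± 0.726 CPM (adjusted p = 0.434 by edgeR), and its groups overlapped.

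Of the 3 leukocyte alpha chains, which macrophages carry, 1 was called higher and 0 lower (33.3% called, against 32.4% of all genes tested). Itgax (CD11c), a chain of dendritic cells and some macrophages, rose from 2.08, 3.37 and 1.70 CPM in Control to 7.70, 10.4 and 6.97 CPM in TNF (1.79 ± 0.26, adjusted p = 0.000846 by edgeR). Library 2 was the highest of both groups. Itgam (CD11b) had 32.8, 47.9 and 28.0 CPM in Control and 36.3, 46.0 and 38.3 CPM in TNF, and Itgal (LFA-1 alpha) had 13.5, 18.7 and 12.1 against 18.4, 18.9 and 18.2 CPM. Their shared partner Itgb2 (CD18) had 90.7, 122 and 83.8 CPM in Control and 123, 138 and 119 CPM in TNF. None of the latter 3 was called with all libraries (adjusted p = 0.576, 0.140 and 0.0916 by edgeR). In each, Control library 2, the library with the highest sums of macrophage and of stromal markers, overlapped the TNF group. Without that library all 3 were called higher, with log2 fold changes of 0.40 for Itgam (adjusted p = 0.0377 by edgeR), 0.54 for Itgal (0.00211) and 0.54 for Itgb2 (0.00316), and 5 alpha chains in place of 2 were called higher. Ptprc (CD45), the common leukocyte marker, was at 10.7 to 13.2 TPM in Control and 13.1 to 13.8 TPM in TNF, while of the 18 macrophage markers C1qa, C1qb, C1qc, Mrc1, Cx3cr1, Cd68, Aif1 and Laptm5 fell and Cybb, Cd14, Spi1 and Csf1r rose. The part of cell number in these values was not tested.

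**Figure D2:**
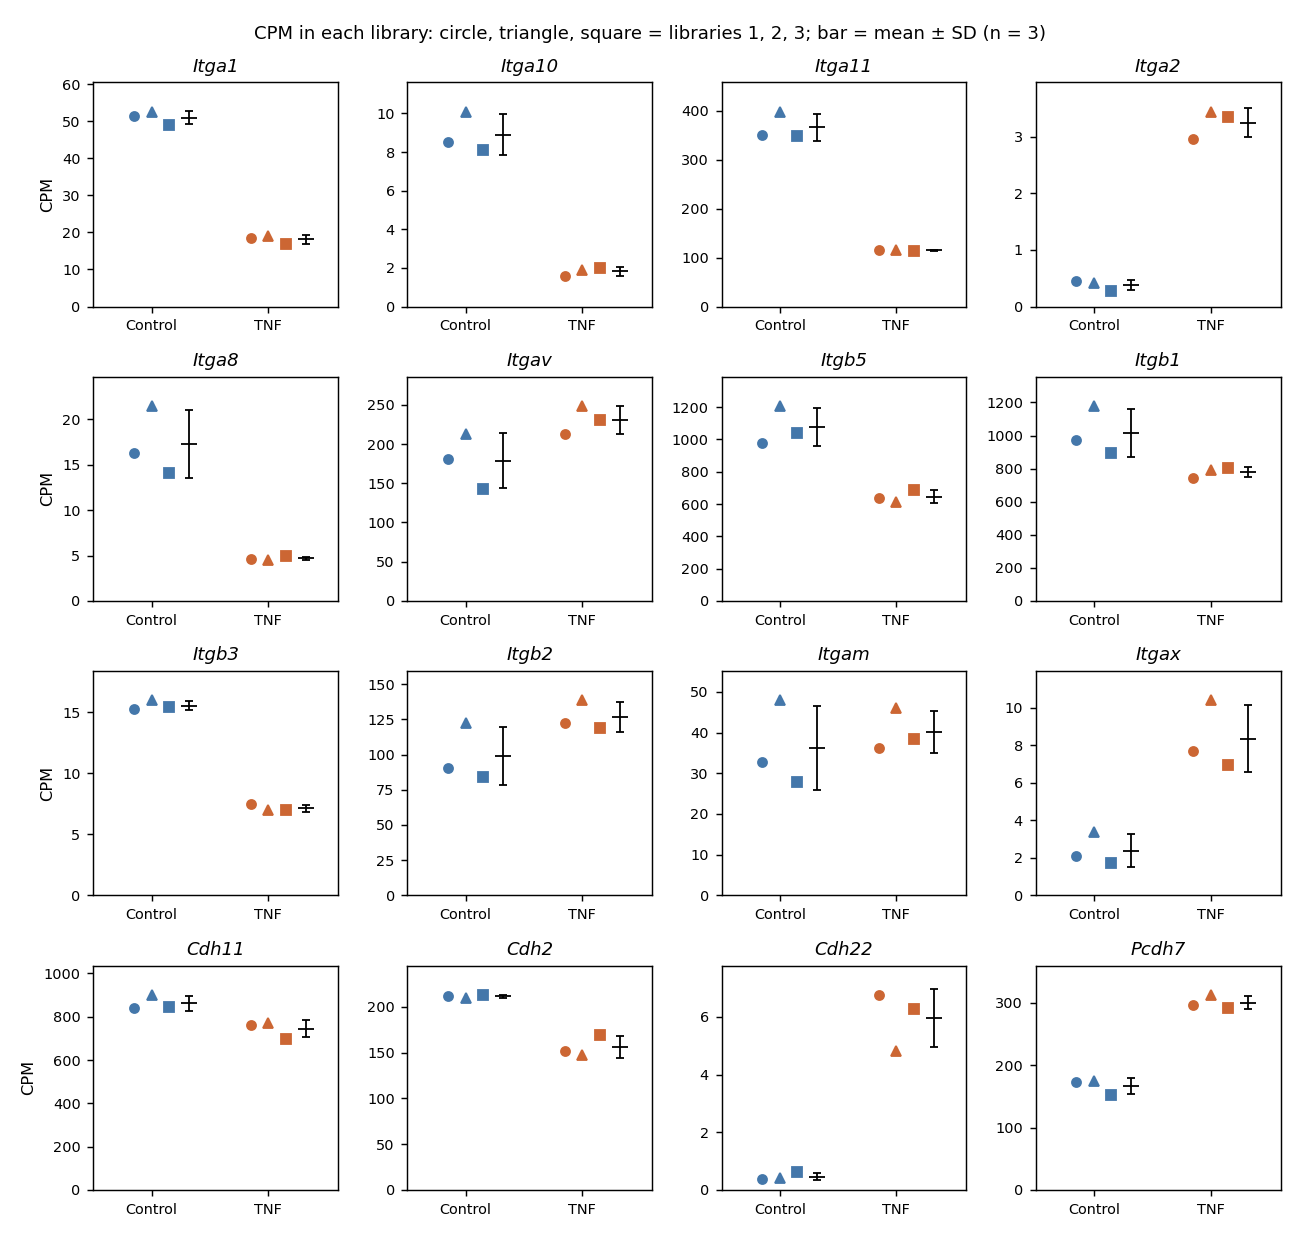
CPM (vertical axes, from 0) of 16 members in each library, Control in blue and TNF in orange, with symbols for libraries 1 to 3 and the mean ± SD beside them. Itga11 fell from 366 ± 28.1 to 115 ± 0.770 CPM with no overlap, whereas in Itgam and Itgb2 the Control library 2 triangle reached the TNF values.

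Among beta integrins 3 of 7 were called lower and 0 higher by edgeR (42.9% called, against 32.4% of all genes tested). DESeq2 also called 0 higher. Their summed level was 1159, 1233 and 1110 TPM in Control and 803, 704 and 830 TPM in TNF (1196 ± 48.0 and 849 ± 25.8 TPM when rescaled without 18S reads). Itgb5, the partner of Itgav that binds vitronectin, was the most abundant member of all families at 630 ± 20.7 TPM in Control. It had 980, 1207 and 1042 CPM in Control and 640, 612 and 687 CPM in TNF (-0.74 ± 0.12, adjusted p = 0.00187 by edgeR), with no overlap. Itgb3, the other vitronectin receptor chain, which osteoclasts and platelets use, had 15.3, 16.0 and 15.4 against 7.48, 7.02 and 6.97 CPM (-1.12 ± 0.08, adjusted p = 2e-05 by edgeR). Itgb5 and Itgb3, which both pair with Itgav, thus fell, while Itgav was not called. Itgb7, a lymphocyte chain, had 5.52 ± 0.238 and 3.07 ± 0.528 CPM (-0.84 ± 0.14, adjusted p = 0.00226 by edgeR).

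Itgb1, the shared partner of the collagen and laminin receptors and of Itga5, had 972, 1178 and 896 CPM in Control and 742, 792 and 801 CPM in TNF. All TNF libraries were lower, by 0.38 ± 0.13 (SE) on the log2 scale, but it was not called (adjusted p = 0.0531 by edgeR; 0.0455 without Control library 3). Its share of the beta sum was 39.9% ± 1.58 in Control and 43.9% ± 0.969 in TNF, that of Itgb5 54.0% ± 1.95 and 45.6% ± 1.80. Itgb4 and Itgb8 were below 1.5 TPM in every library and were not called.

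**Figure D3:**
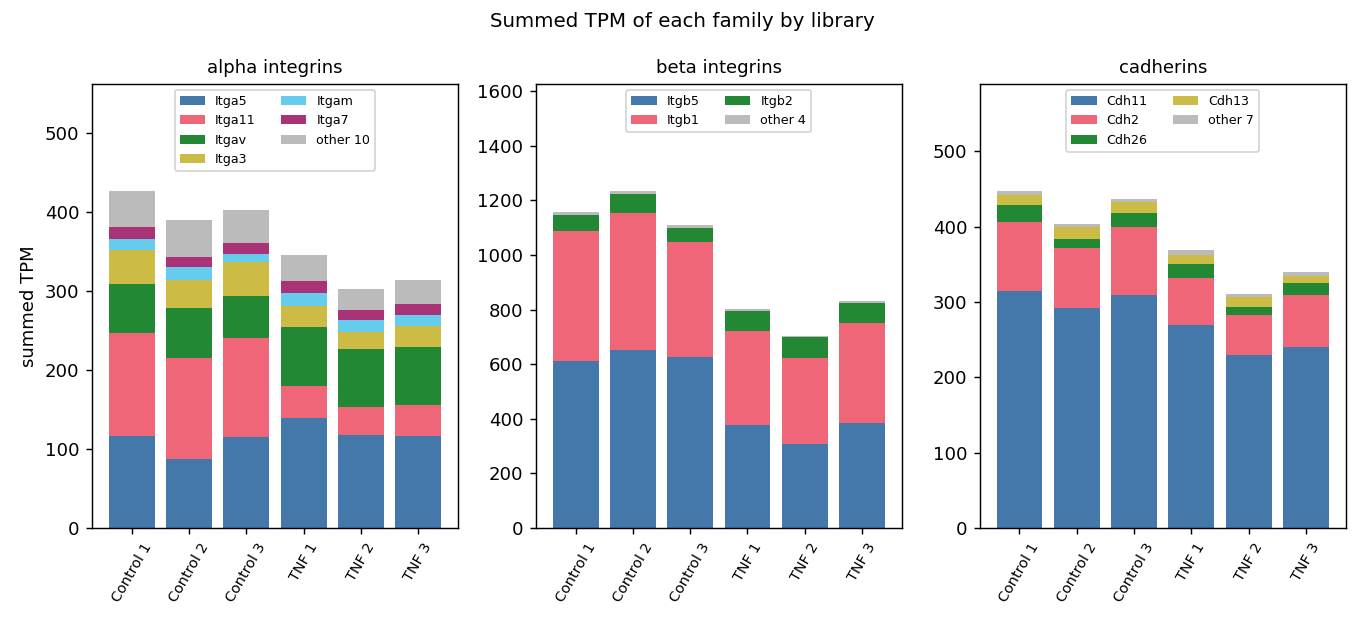
Summed TPM (vertical axis, from 0) of alpha integrins, beta integrins and cadherins in each of the 6 libraries, divided by gene. Itga11 narrows from 31.5% to 11.9% of the alpha sum, and Itgb5 and Itgb1 together make up most of the beta sum in every library.

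Among the 11 cadherins 4 were called lower and 2 higher (54.5% called, against 32.4% of all genes tested). Cdh11 (OB-cadherin), the main cadherin of mesenchymal and bone-forming cells, held 71.1% ± 0.974 of the summed level in Control and 72.5% ± 1.66 in TNF. It had 842, 901 and 843 CPM in Control and 763, 771 and 700 CPM in TNF, groups that did not overlap, and was not called (-0.21 ± 0.10, adjusted p = 0.155 by edgeR). Cdh2 (N-cadherin), next in level, fell from 212, 210 and 213 CPM to 152, 147 and 169 CPM (-0.44 ± 0.09, adjusted p = 0.00506 by edgeR). Cdh26, the third by level, had 24.2 ± 3.11 and 21.9 ± 2.65 CPM, with overlapping groups.

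The larger changes were in cadherins of low level. Cdh22, a cadherin known mainly from brain, had 0.370, 0.397 and 0.615 CPM in Control and 6.76, 4.83 and 6.26 CPM in TNF (3.70 ± 0.23, adjusted p = 6e-06 by edgeR), the largest log2 fold change of the 94 members in either direction. Its level moved from 0.220 ± 0.0694 to 2.80 ± 0.756 TPM. Cdh23, which forms the tip links of hair cells, rose from 1.92 ± 0.172 to 3.65 ± 0.502 CPM (0.92 ± 0.15, adjusted p = 0.002 by edgeR). Cdh24 fell from 3.45 ± 0.0746 to 1.28 ± 0.112 CPM (-1.42 ± 0.14, adjusted p = 0.000103 by edgeR), and Cdh17, an intestinal cadherin, from 2.14 ± 0.133 to 0.966 ± 0.152 CPM (-1.16 ± 0.18, adjusted p = 0.00153 by edgeR). Cdh3 (P-cadherin) had 30, 66 and 38 counts in Control and 7, 6 and 3 in TNF (-2.61 ± 0.43, adjusted p = 0.00181 by edgeR). All genes analysed had a count of 10 or more in at least 3 libraries, which Cdh3 met only through Control. Its presence among the members thus rests on its high Control level, and its test and ratio give no independent support for a fall. The summed counts of Cdh3 gave a Control to TNF ratio of 6.4 (95% exact interval 3.8 to 11.5), an interval for counting error alone. It leaves out the spread between libraries and any copies made by PCR that were counted as separate reads. Cdh10, Cdh13 and Cdh18 were not called.

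The protocadherins outside the clusters went the other way in sum, from 101, 84.9 and 87.9 TPM in Control to 147, 120 and 132 TPM in TNF. Pcdh7, which made up 56.2% ± 1.39 of that sum in Control and 66% ± 1.68 in TNF, rose from 173, 174 and 152 CPM to 296, 313 and 292 CPM (0.85 ± 0.09, adjusted p = 0.000186 by edgeR). Pcdh15, a partner of Cdh23 in tip links, had 31, 25 and 27 counts in Control and 42, 44 and 53 in TNF (1.12 ± 0.27, adjusted p = 0.0135 by edgeR; 0.0617 without both libraries numbered 2). Pcdh9 fell from 7.52 ± 0.405 to 4.02 ± 0.785 CPM (-0.91 ± 0.15, adjusted p = 0.00186 by edgeR). Pcdh18, with 45.1 ± 3.84 and 50.6 ± 0.463 CPM, and Pcdh19, with 86.8 ± 7.41 and 111 ± 16.6 CPM, were not called, the latter at adjusted p = 0.0541 by edgeR and 0.0200 without TNF library 3. Pcdh1, Pcdh10 and Pcdh20 were not called either.

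The clustered protocadherins were detected across all 3 arrays, 6 of the alpha, 20 of the beta and 21 of the gamma cluster. Genes of the alpha and gamma clusters share their last exons, and the beta genes have similar sequences, which leaves it uncertain how well reads were assigned to single genes of a cluster. Pcdhgc3 stood far above the others at 256 ± 13 TPM in Control, 58.1% ± 1.48 of the clustered sum, followed by Pcdhga5 at 32.7 ± 1.16 TPM and Pcdhgc5 at 29.8 ± 1.83 TPM, whose Control values lay next to each other without overlap (31.8 to 34.0 and 27.7 to 31.0 TPM). The highest beta genes, Pcdhb16 at 7.94 ± 0.809 TPM and Pcdhb17 at 7.22 ± 0.853 TPM, differed by less than 1 SD, and the highest alpha gene, Pcdhac2, was at 3.52 ± 0.290 TPM.

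Changes in the clusters were small. Of the 47 genes 41 had a log2 fold change below 0, among them all 20 beta genes, where 50.4% of all genes tested did, and the median was -0.24. Few passed the test: 4 were called lower and 1 higher (10.6% called, against 32.4% of all genes tested). Pcdhac2, one of the C-type genes, rose from 12.4, 12.2 and 11.5 CPM to 18.2, 19.5 and 18 CPM (0.62 ± 0.08, adjusted p = 0.000603 by edgeR), against the direction of most of its neighbours. Pcdhb12 fell from 3.90, 3.85 and 3.53 CPM to 1.79, 2.43 and 2.74 CPM (-0.70 ± 0.17, adjusted p = 0.0138 by edgeR). Pcdha5 (-1.53 ± 0.43, adjusted p = 0.0267), Pcdhb17 (-0.49 ± 0.13, 0.0197) and Pcdhgb6 (-0.32 ± 0.10, 0.0397) were the other 3 called lower by edgeR. Each lost its call when single libraries were left out, with adjusted p up to 0.103, 0.0642 and 0.109. The number of cluster genes called lower was 1 without TNF library 1, 2 without Control library 2 and 8 without Control library 3. Pcdhgc3 had 600, 743 and 622 CPM in Control and 543, 456 and 550 CPM in TNF, non-overlapping groups that were not called (-0.34 ± 0.13, adjusted p = 0.0711 by edgeR).

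**Figure D4:**
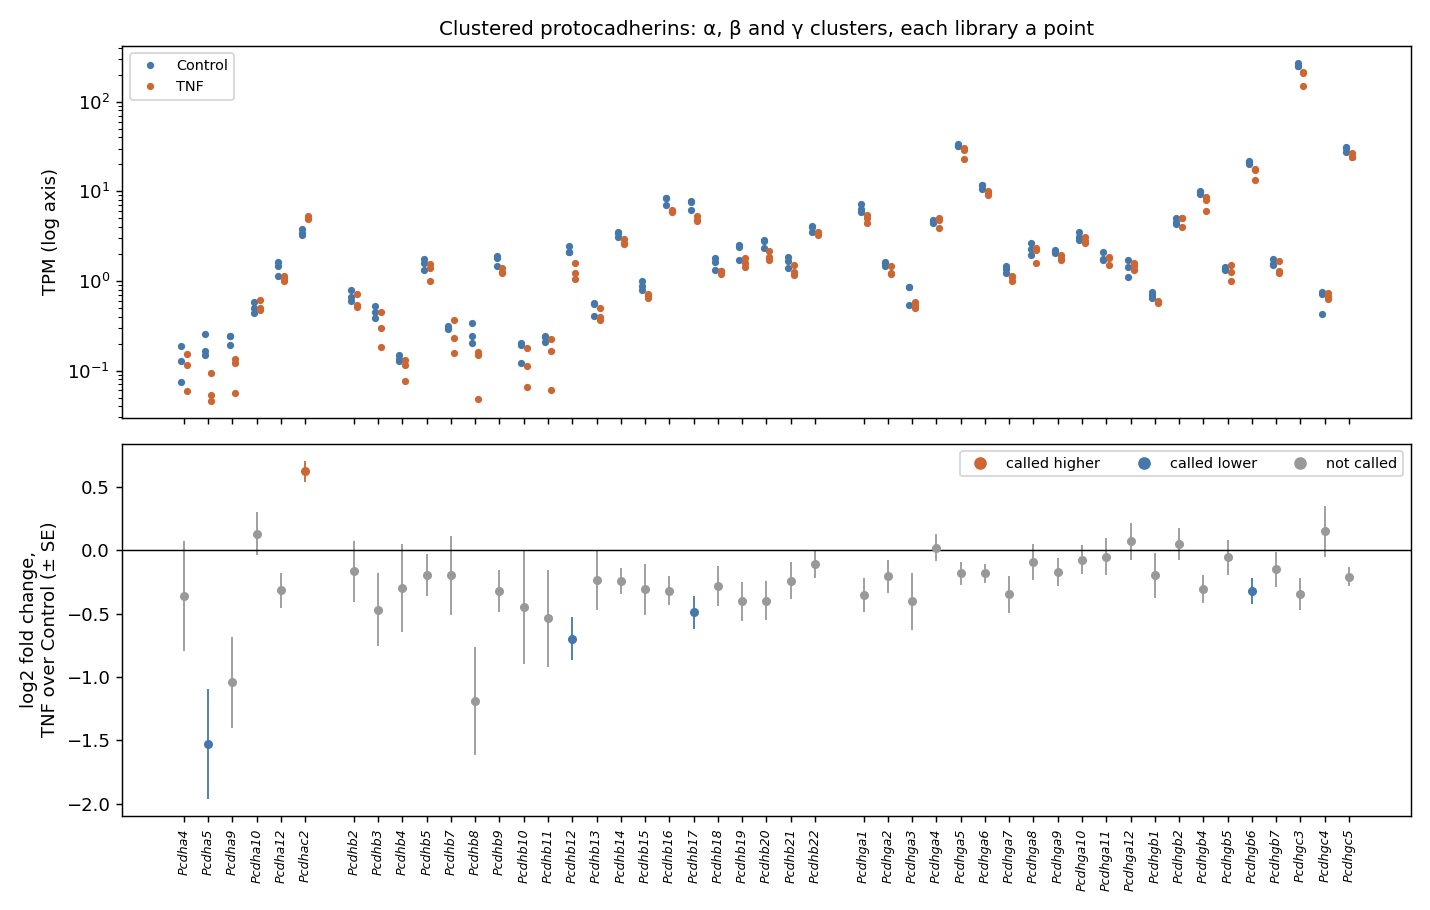
Clustered protocadherins in gene order by name. The upper panel gives TPM on a log axis, each point a library, and the lower panel the log2 fold change of TNF over Control ± SE; 41 of 47 points lie below 0 and Pcdhgc3 is the highest gene in both groups.

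The claudins and junctional adhesion molecules analysed were 5 genes. Cldn1 rose from 1.81, 1.69 and 1.72 CPM to 3.56, 3.40 and 3.52 CPM (1.0 ± 0.13, adjusted p = 0.000423 by edgeR), a narrow spread at a low level of 0.957 ± 0.101 and 1.82 ± 0.191 TPM. Cldn12, the more abundant of the pair, was at 28.4 ± 3.51 CPM in Control and 33.0 ± 1.53 CPM in TNF, not a called difference (adjusted p = 0.149 by edgeR). Jam2, which endothelial and stromal cells use to bind leukocytes and each other, rose from 13.2, 14.5 and 11.9 CPM to 21.4, 20.3 and 23.6 CPM (0.72 ± 0.10, adjusted p = 0.00091 by edgeR). Jam3, its partner and the most abundant of the 3, had 46.4 ± 2.66 and 46.9 ± 2.91 CPM, with a log2 fold change of 0.01 ± 0.08 that turned to a value below 0 when scaled by library totals. F11r (JAM-A) was at 1.24 ± 0.247 and 1.12 ± 0.0791 TPM and was not called.

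The genes that work with these receptors were described by 5 lists, by counts only. Of integrin ligands 8 of 35 rose and 14 fell (62.9% called, against 32.4% of all genes tested). Icam1, the ligand of Itgal and Itgam with Itgb2, rose from 16.5 ± 2.40 to 213 ± 9.20 CPM, and Vcam1, the ligand of Itga4 and Itga9, from 139 ± 3.95 to 1170 ± 91.6 CPM. Ibsp, a bone sialoprotein with an RGD sequence, fell from 18.3 ± 2.40 to 1.77 ± 0.238 CPM. Of the chains just named with Icam1 and Vcam1, Itga9 was called lower, and Itga4, Itgal, Itgam and Itgb2 were not called with all libraries. The leukocyte chains not named with them here are Itgax, called higher (log2 fold change 1.79), and Itgb7, called lower (-0.84). Of cytoplasmic partners of integrins 5 of 32 rose and 7 fell (37.5% called, near the share of all genes tested). Fermt3, the kindlin of blood cells, rose from 31.0 ± 0.128 to 54.2 ± 2.44 CPM, and the focal adhesion proteins zyxin (Zyx, 805 ± 33.8 to 377 ± 48.1 CPM) and vinculin (Vcl, 400 ± 75.0 to 184 ± 11.5 CPM) fell. With library totals as the scaling, 1 of this list rose and 4 fell, as with limma on log2 TPM. Its counts also moved when 1 library was left out: the higher count to 3 without Control library 1 and 2 without TNF library 1, and the lower count to 3 without TNF library 1 and 4 without Control library 1, Control library 3 or TNF library 2.

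The list of cytoplasmic partners of cadherins also held the nectins themselves, and Vcl, which is counted among the integrin partners too. Of its 19 genes tested 1 rose and 9 fell (52.6% called, against 32.4% of all genes tested). Nectin2 was the 1 that rose, from 19.6 ± 1.96 to 45.7 ± 4.20 CPM, while Arvcf, a catenin of the p120 family, fell from 47.5 ± 6.70 to 22.1 ± 0.727 CPM and Ctnnal1 from 9.34 ± 0.672 to 4.72 ± 0.243 CPM. Of tight junction scaffolds and partners 5 of 27 rose and 7 fell (44.4% called), with 3 rising when scaled by library totals or in limma on log2 TPM. Cingulin (Cgn) rose from 0.520 ± 0.133 to 4.35 ± 0.651 CPM, and Amot (angiomotin) fell from 85.4 ± 13 to 28.4 ± 1.81 CPM. The list of atypical and desmosomal cadherins held 25 genes, of which 13 were not analysed here, among them every desmosomal one (the Dsg and Dsc genes). Of the 11 tested 2 rose and 1 fell (27.3% called, near the share of all genes tested). Cdhr1 rose from 8.09 ± 1.92 to 26.0 ± 3.15 CPM and Celsr1 from 0.127 ± 0.0643 to 0.325 ± 0.0957 CPM. Fat4 fell from 80.7 ± 24.3 to 39.8 ± 6.02 CPM. Celsr1 was at the threshold (adjusted p = 0.0492 by edgeR, and not called without Control library 2 or 3 or TNF library 1 or 2, with adjusted p up to 0.171), and the other genes named here from these lists kept their calls under all settings tried.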

How the data were processed

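Total RNA of 6 samples was sequenced, 3 Control and 3 TNF, from SMART-Seq Stranded libraries per the labels' protocols. Per the submitters' processing notes the authors used Trim Galore, STAR, StringTie, Salmon and build GRCm39, with no versions or roles. The authors deposited expected counts per gene as whole numbers, with a title line calling them normalized and a column name calling them raw. Library totals differed, so they were used as counts. The authors also deposited TPM with gene symbols, each column summing to 1000000. Counts carry no gene column and were joined to TPM by line: all 260 zeros coincided, and the median SD of log2(count/TPM) was 0.027, against 0.413 with lines moved by 1. All 15634 genes had a count of 10 or more in at least 3 libraries, so rarer members were not analysed here.

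Counts were fitted over all genes in R 4.3.3 with the quasi-likelihood test of edgeR 4.0.16 (glmQLFit and glmQLFTest, two-sided), after filterByExpr and with TMM factors, group being the only term. The SE is the absolute log2 fold change divided by the square root of F. The fit was tested on simulated counts with known changes. Members and lists were chosen with earlier results of these data known. The rule named called members with non-overlapping groups and an absolute log2 fold change of at least 1, the 3 members of each family with the highest TPM, a fixed set of 18 symbols, and up to 3 called genes of each pathway list with the smallest adjusted p. A gene that this rule names is not reported here. Other called members, and the classes of alpha chains by ligand, were named after values were seen. Promoter windows were searched for κB, TGANTCA and GGGCGG. Alternatives were other scalings, DESeq2 1.42.0, limma 3.58.1 on log2 TPM, other filters, a stricter threshold, a replicate block and leaving out libraries.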

Additional observations from a re-analysis of the deposited data

How the results depend on the processing

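The members called numbered 9 higher and 20 lower. With 1 library left out these counts ranged from 9 to 13 and from 16 to 25, and over all other settings from 8 to 12 and from 14 to 26. Of the 29 called members 25 were called in all 6 repeats without 1 library, 23 in every refit that gave them a result, and 0 changed sign. Of the 17 named members that were not called, 10 were called in at least 1 refit, 7 by DESeq2 and 4 without Control library 2. For members whose call changed in the text, adjusted p over all refits ranged from 0.0114 to 0.390 for Itga5, 0.0112 to 0.222 for Itgav, 0.0363 to 0.9998 for Itgam, 0.00185 to 0.323 for Itgal, 0.00109 to 0.233 for Itgb2, 0.00867 to 0.185 for Itgb1, 0.00768 to 0.106 for Itga6, 0.00201 to 0.554 for Itga9, 0.0200 to 0.222 for Pcdh19 and 0.00397 to 0.227 for Pcdh15, by edgeR, DESeq2 or limma. Over all genes, 2489 were called higher and 2550 lower. The higher count was 1612 with library totals as the scaling (38.5% of calls higher, against 49.4%), 1479 and 1475 with limma on log2(TPM + 1) and log2(TPM + 0.1), and 1587 at an adjusted p under 0.01, where the lower count was 1534. Without 1 library the 2 counts ranged from 1721 to 2413 and from 1728 to 2382. Clustered protocadherins called lower numbered 9 with library totals, 7 by DESeq2, 2 with log2 TPM and 0 at adjusted p under 0.01. In the list of atypical and desmosomal cadherins, with no desmosomal gene tested, 1 was called higher and 2 lower with library totals. Integrin ligands called higher numbered 13 without both libraries numbered 2. The cause of these differences was not tested. With the replicate number as a block, 9 members were called higher and 18 lower, and 1987 and 1993 of all genes. Itga6, Pcdh15 and Pcdhgb6 were no longer called and Itgb2 was called higher (adjusted p = 0.0417). Libraries with the same number did not deviate together (correlations -0.012, -0.304 and -0.222), so the numbers were not taken to pair samples. Library totals limit members below about 1 TPM, such as Cdh3 and Pcdha5, which had fewer than 100 counts in every library.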
